A study of Mus musculus with 6 samples.

Results

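The genes described here are Ccnd3, Ccne2, Rrm2 and Usp1, 4 genes of cell cycle entry, DNA precursor supply and repair of replication blocks. The genes were picked as a functional group with earlier results of these data known, and every row of the deposited table whose RefSeq accession maps to one of them was taken, which gave 4 of 1037 transcripts, 1 for each gene. By their labels, the samples were wild-type primary CD8+ T cells from mouse spleen, kept in RPMI medium with serum. They were exposed for 2 h to the anthracycline daunorubicin (DNR) or to its solvent DMSO. DNR inhibits topoisomerase II and inserts into DNA. The rows used here could not check the cell type, and a monocyte and macrophage marker, described below, was abundant in every sample. Each group had 3 samples called biological replicates. The labels do not say whether these came from separate mice or whether the cells had been stimulated, and p-values measure only the spread between these samples, which may be technical. RNA was measured by sequencing, as FPKM (fragments per kilobase of transcript, scaled to depth).

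The D-type cyclins, cyclin D3 among them, bind CDK4 or CDK6 in G1 and start the phosphorylation of the retinoblastoma protein, which releases E2F transcription factors. Cyclin E2 then activates CDK2 at the entry into S phase. Ribonucleotide reductase makes the deoxynucleotides for DNA synthesis, and Rrm2 encodes its regulatory subunit, whose level follows S phase in cycling cells. Usp1 encodes a deubiquitinase that, with its partner Wdr48, removes ubiquitin from the Fanconi anaemia protein FANCD2 and from the replication clamp PCNA. Resting T cells leave quiescence through this G1 machinery when they are activated.

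The promoter windows of Rrm2 and of the listed Ccnd3 transcript are shown because no windows were found for Ccne2 and Usp1. Both are the RefSeq windows from 250 bases before to 50 bases after the start site, build GRCm38.p6, 5′ to 3′, on the plus strand, with CCAAT, the core of the NF-Y box found in many cell cycle promoters, in capitals.
Rrm2, chr12:24708004-24708303: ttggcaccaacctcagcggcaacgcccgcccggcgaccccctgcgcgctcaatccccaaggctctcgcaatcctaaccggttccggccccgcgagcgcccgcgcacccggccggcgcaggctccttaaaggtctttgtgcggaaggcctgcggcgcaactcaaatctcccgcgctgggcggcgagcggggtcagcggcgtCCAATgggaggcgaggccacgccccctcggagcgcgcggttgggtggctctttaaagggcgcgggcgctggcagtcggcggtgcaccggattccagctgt
Ccnd3, start of NM_007632, chr17:47593217-47593516: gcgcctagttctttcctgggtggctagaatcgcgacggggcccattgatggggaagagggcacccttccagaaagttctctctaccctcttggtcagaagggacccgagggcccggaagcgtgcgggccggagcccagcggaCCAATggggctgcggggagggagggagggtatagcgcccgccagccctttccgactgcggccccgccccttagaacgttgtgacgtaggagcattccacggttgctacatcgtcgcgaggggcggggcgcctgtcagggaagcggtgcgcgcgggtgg
Each window held 1 CCAAT on the plus strand, from 50 to 46 bases before the start in Rrm2 and from 108 to 104 bases before it in Ccnd3. Of all 32851 windows of the same length, 37.4% held CCAAT or its reverse complement, so these letters are common. Neither window held TTTGGCGC, TTTCCCGC, TTTGCCGC or TTTCGCGC, spellings of the E2F consensus, on either strand, and 2.26% of all windows held at least 1 of them. Nor did they hold TTTGAA (17.9% of windows), TTCGAA (1.56%) or TATAAA (13.6%). No search motif overlapped another match in these windows. Both were rich in G and C, at 71.3% in Rrm2 and 67.0% in Ccnd3, and 7.36% and 13.8% of all windows were richer. The window at the first start of Ccnd3, 88.4 kb upstream (chr17:47504801-47505100), is not printed because the listed transcript does not begin there; it held none of these motifs, CCAAT included, and 59.3% G and C. A match is a description of the letters and does not show that a factor binds.

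After DNR, the transcripts of Ccnd3, Rrm2 and Usp1 were higher and that of Ccne2 was listed at 0. Mean FPKM was 41.3% higher for Ccnd3, 20.3% higher for Rrm2 and 2.28 times as high for Usp1 in DNR as in DMSO. All 4 transcripts passed the test (limma on log2(FPKM + 1) over 388 transcripts, Benjamini-Hochberg adjusted p under 0.05), 3 of them higher and 1 lower. Nearly every tested transcript did: 387 of 388, or 99.7%, were called, 43.0% higher and 56.7% lower, and the groups did not overlap in the same 99.7%. The table is named as the matrix of a heatmap of these groups, so its rows had probably been chosen for a difference between these samples, and that the 4 genes passed is no result about them. What can be read is their direction, size and pattern by sample. Which columns are DNR was read from their codes alone, and every direction rests on that reading.

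Ccnd3 encodes cyclin D3, a D-type cyclin prominent in lymphocytes. Its transcript NM_007632 was at 22.0, 21.2 and 20.2 FPKM in DMSO replicates 1 to 3 and at 27.1, 29.7 and 32.9 FPKM in DNR replicates 1 to 3. All DNR samples were above all DMSO samples, and the nearest pair was 5.07 FPKM apart. The spread was wider in DNR, with an SD of 2.89 FPKM around a mean of 29.9, against 0.90 around 21.2 in DMSO (n = 3 each). On the log2(FPKM + 1) scale the transcript rose by 0.48 ± 0.08 (SE; 95% interval 0.30 to 0.66; limma, adjusted p = 0.00197). Leaving out DNR replicate 3, the highest sample, gave 0.41.

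The listed Ccnd3 transcript is the short form of the gene. The gene spans 94.6 kb (chromosome 17, 47505051 to 47599689, GRCm38.p6), and RefSeq gives it 6 transcripts, of which 1 has a row. In GENCODE M21, on the same build, NM_007632 matches a 5-exon transcript of 6.22 kb (47593470 to 47599689) whose start lies 88.4 kb downstream of the gene's first start. The long form with RefSeq accessions has 7 exons and begins at that first start, and both have the same coding blocks of 876 bases. Of the 1977 exonic bases of the listed form, 92.7% are also exonic in the long form, and 139 of the 145 others lie in its first exon. Reads from the shared exons do not tell the forms apart, so a value for NM_007632 depends on how the quantification divided them. Whether use of the downstream start or the output of the whole gene differed between the groups was not tested.

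**Figure D1:**
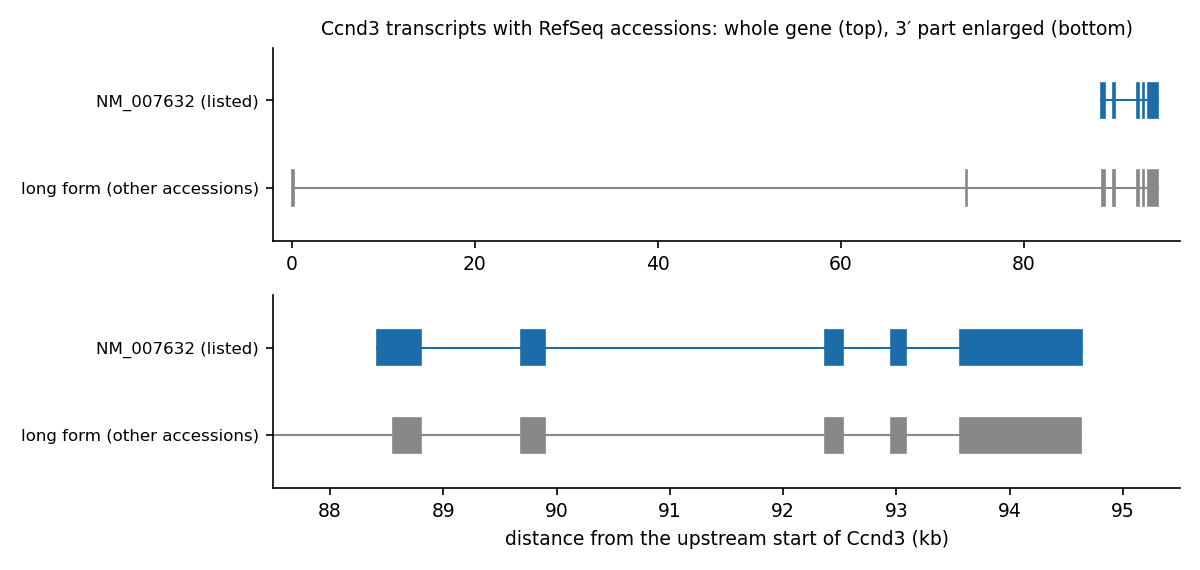
Exons (boxes) of the Ccnd3 transcripts that carry RefSeq accessions, by distance in kb from the gene's first start, for the whole gene (top) and its 3′ part (bottom). The listed form NM_007632 (blue) has 5 exons within 6.22 kb, starting 88.4 kb into the gene, and shares most of its exonic bases with the 7-exon long form (grey).

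Ccne2 encodes cyclin E2, the CDK2 partner. Its listed transcript, the predicted model XM_006537573, was at 2.30, 2.86 and 1.45 FPKM in DMSO replicates 1 to 3 and listed at 0 in every DNR sample. The groups did not overlap, and the lowest DMSO sample, replicate 3, was at 1.45 FPKM. The difference was called lower (limma, adjusted p = 0.000296), but with zeros in DNR the row could pass the filter of at least 1 FPKM in at least 3 samples only through the DMSO group. A row kept in this way had to differ, so the call and its p support nothing. No fold is given against a group at 0, which in FPKM can also be a failed estimate. Ccne2 was the most variable of the 4 in DMSO, with a coefficient of variation of 32.2%, against 4.26% for Ccnd3, 1.15% for Rrm2 and 15.2% for Usp1. It also had the lowest DMSO mean of the 4, and the coefficients ran in the reverse order of the means. The part of level in this order was not tested.

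The gene of Ccne2 (chromosome 4, 11190433 to 11204779) has 7 RefSeq transcripts, and the other 6 have no row used here, so the row does not give the level of the gene. Of the 388 tested transcripts, 17 were seen in every DMSO sample and in no DNR sample, and 15 of these were predicted models. By DMSO mean Ccne2 was the sixth of the 17, whose means ran from 1.15 to 8.91 FPKM with a median of 1.92. Rows at 0 throughout a group made up 16.2% of the 167 tested predicted models and 4.07% of the 221 tested curated transcripts. Below the filter the shares were closer, at 31.7% of 479 predicted models and 27.6% of 170 curated transcripts. The opposite pattern, with the zeros in DMSO, was seen for 19 tested transcripts. Rows seen in 1 group alone, as that of Ccne2 was, thus occurred in both directions and among both kinds of transcript.

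Rrm2 encodes the regulatory subunit of ribonucleotide reductase. Its transcript NM_009104 was at 42.4, 43.3 and 43.0 FPKM in DMSO replicates 1 to 3 and at 50.4, 48.9 and 55.5 FPKM in DNR replicates 1 to 3. The DMSO samples lay within 1 FPKM of each other, and the lowest DNR sample was 5.60 FPKM above the highest of them. Rrm2 rose from 42.9 ± 0.49 to 51.6 ± 3.44 FPKM (SD, n = 3), or by 0.26 ± 0.05 on the log2(FPKM + 1) scale (SE; 95% interval 0.14 to 0.38; limma, adjusted p = 0.00386). DNR replicate 3 was the highest, and without it the change was 0.21.

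Rrm2 is the only one of the 4 genes for which RefSeq gives a single transcript, so its row is the only one that stands for all RefSeq transcripts of its gene (chromosome 12, 24708254 to 24714146, 5.89 kb). GENCODE M21 gives the matching transcript 10 exons and 2193 exonic bases, 1170 of them coding. It was the most abundant of the 4, ranking 76 by DMSO mean among the 1037 rows. Ccnd3 ranked 131, Usp1 305 and Ccne2 322.

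Usp1 encodes the deubiquitinase of FANCD2 and PCNA. Its transcript NM_001356424 was at 3.06, 2.26 and 2.59 FPKM in DMSO replicates 1 to 3 and at 5.05, 6.19 and 6.77 FPKM in DNR replicates 1 to 3. Every DNR sample was above every DMSO sample, with 1.99 FPKM between the nearest pair. Usp1 rose from 2.64 ± 0.40 to 6.0 ± 0.88 FPKM (SD, n = 3), a change of 0.94 ± 0.15 on the log2(FPKM + 1) scale (SE; 95% interval 0.60 to 1.29; limma, adjusted p = 0.00172). That scale understates the change of a transcript this low: with 0.1 in place of 1 as the pseudocount the change was 1.16 ± 0.18. The gene (chromosome 4, 98923810 to 98935543, 11.7 kb) has 3 RefSeq transcripts, and the other 2 have no row used here, so the rise is that of 1 form and was not tested for the gene.

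**Figure D2:**
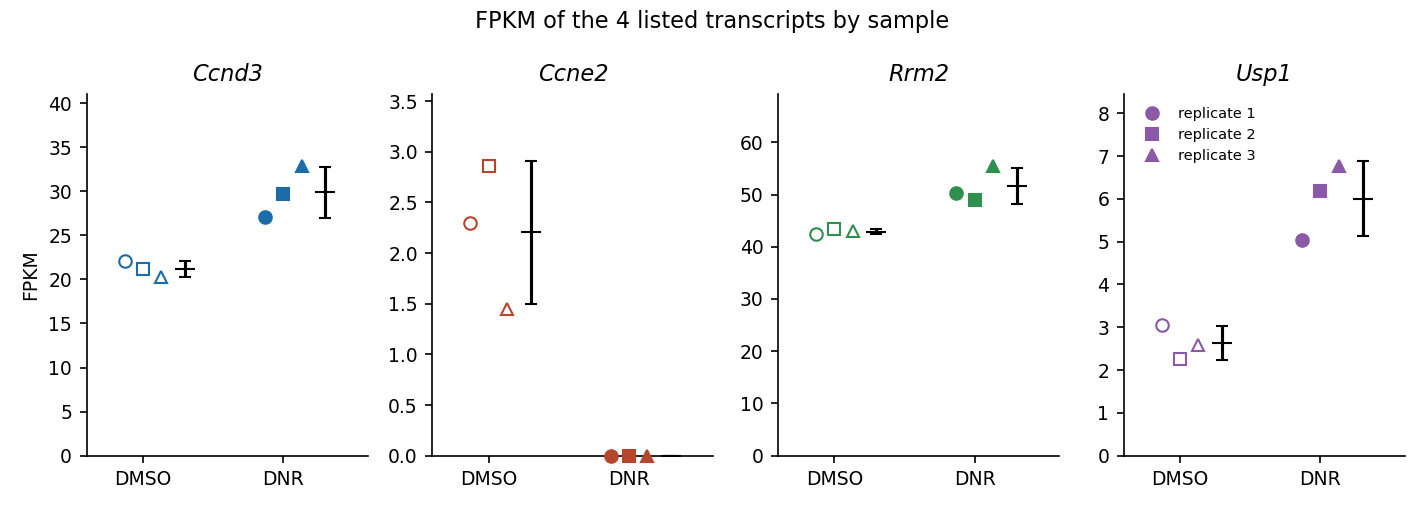
FPKM of the listed transcripts of Ccnd3, Ccne2, Rrm2 and Usp1 in each of 3 DMSO samples (open) and 3 DNR samples (filled), each panel with its own axis from 0. Marker shape gives the replicate number and bars give the mean ± SD. No DNR value of Ccnd3, Rrm2 or Usp1 reaches down to a DMSO value, and Ccne2 is at 0 in all 3 DNR samples.

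FPKM are per length and allow the levels of the listed transcripts to be ordered. For Ccnd3, Ccne2 and Usp1 these are levels of 1 form of several, so the order is not one of the genes. In DMSO the order was Rrm2, Ccnd3, Usp1 and Ccne2. Rrm2 stood at 2.03 times Ccnd3, and Ccnd3 at 8.03 times Usp1, with no overlap between samples. Usp1 and Ccne2 overlapped in DMSO, at 2.26 to 3.06 and 1.45 to 2.86 FPKM, and their order there is not beyond the spread. In DNR the order was the same and no neighbours overlapped, with Rrm2 at 1.73 times Ccnd3 and Ccnd3 at 4.98 times Usp1.

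The listed transcripts of Ccnd3, Rrm2 and Usp1 rose by unequal amounts. The intervals of Usp1 (0.60 to 1.29) and Rrm2 (0.14 to 0.38) did not overlap on the log2(FPKM + 1) scale, while that of Ccnd3 (0.30 to 0.66) overlapped both. These intervals may be too narrow in a table chosen for a difference. Ratios between transcripts within a sample do not depend on how samples were scaled against each other. The FPKM ratio of Rrm2 to Ccnd3 was 1.92, 2.04 and 2.12 in DMSO replicates 1 to 3 and 1.86, 1.65 and 1.69 in DNR. That of Ccnd3 to Usp1 was 7.20, 9.38 and 7.81 in DMSO and 5.37, 4.79 and 4.86 in DNR. That of Rrm2 to Usp1 was 16.5 ± 2.67 in DMSO and 8.69 ± 1.12 in DNR (SD, n = 3). Each of the 3 ratios was lower in every DNR sample than in every DMSO sample. The exact two-sided permutation p was 0.1, the smallest that 3 against 3 allows, both raw and adjusted over the 3 ratios. The ratio of Rrm2 to Usp1 is the product of the others, so the 3 are not separate results. How often ratios of other rising transcripts separate was not computed, so the separation is a description and no support. The separation was narrowest for Rrm2 to Ccnd3, where 1.92 in DMSO stood beside 1.86 in DNR. In FPKM, by contrast, the mean differences of Ccnd3 and Rrm2 were alike, at 8.73 and 8.70 FPKM.

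Set among all tested transcripts, none of the 3 rises stood out by size. Ranked by change among the 137 transcripts that were called higher and above 0 in all 6 samples, Usp1 was 22nd, Ccnd3 63rd and Rrm2 103rd. Their median change was 0.43, against 0.48 for the 3 genes. Over all 388 tested transcripts the median change was -0.22, and over the 4 genes it was 0.37. Low transcripts in the table had larger changes than abundant ones, and the 3 genes followed that order. The probable choice of rows for a difference and the filter can bear on this order, and their part was not tested. Among tested transcripts within 0.5 log2 units of the same mean level, the median size of change was 0.25 for the 44 around Rrm2, 0.33 for the 57 around Ccnd3 and 0.70 for the 57 around Usp1. In these neighbourhoods 38.6%, 40.4% and 45.6% of transcripts were called higher.

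**Figure D3:**
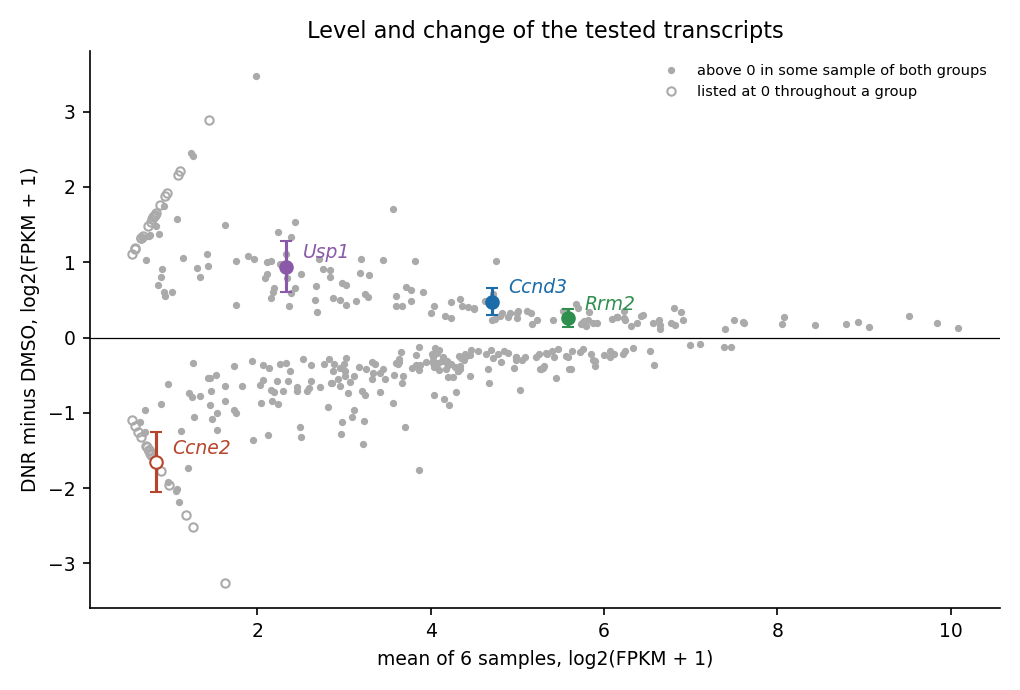
Change (DNR minus DMSO) against mean level of the 388 tested transcripts, both on the log2(FPKM + 1) scale, with the 4 genes in colour and their 95% intervals as bars. Open circles are transcripts listed at 0 throughout a group, whose change depends on the pseudocount. Usp1, Ccnd3 and Rrm2 lie within the cloud of rising transcripts, and Ccne2 among the low transcripts at 0 in DNR.

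The highest DNR value of Ccnd3, Rrm2 and Usp1 was in replicate 3 in each case. This sample was also the highest in 43.3% of the 164 called-higher transcripts with 3 distinct DNR values, against 36.0% for replicate 2 and 20.7% for replicate 1, so a highest value in this sample is frequent in the table. The lowest DNR value was in replicate 1 for Ccnd3 and Usp1 and in replicate 2 for Rrm2. In DMSO, replicate 1 was highest for Ccnd3 and Usp1, and replicate 2 for Rrm2.

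Scaling between samples bears on the size of these changes. The median of the tested transcripts was 0.18 lower on the log2 scale in DNR than in DMSO. With samples shifted to a common median, the rises were 0.66 for Ccnd3, 0.44 for Rrm2 and 1.13 for Usp1, and the share of calls that were higher went from 43.2% to 61.2%. With quantile normalization they were 0.58, 0.33 and 0.99, and 46.6% of calls were higher. Relative to the median transcript of the table the rises were therefore larger than as deposited. Both scalings were estimated on a list that was probably chosen for a difference, and no scaling over all genes could be made. The median shift adds the same 0.18 to every change. In proportion it therefore had to move Rrm2, the smallest of the 3 rises, most, from 0.26 to 0.44.

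**Figure D4:**
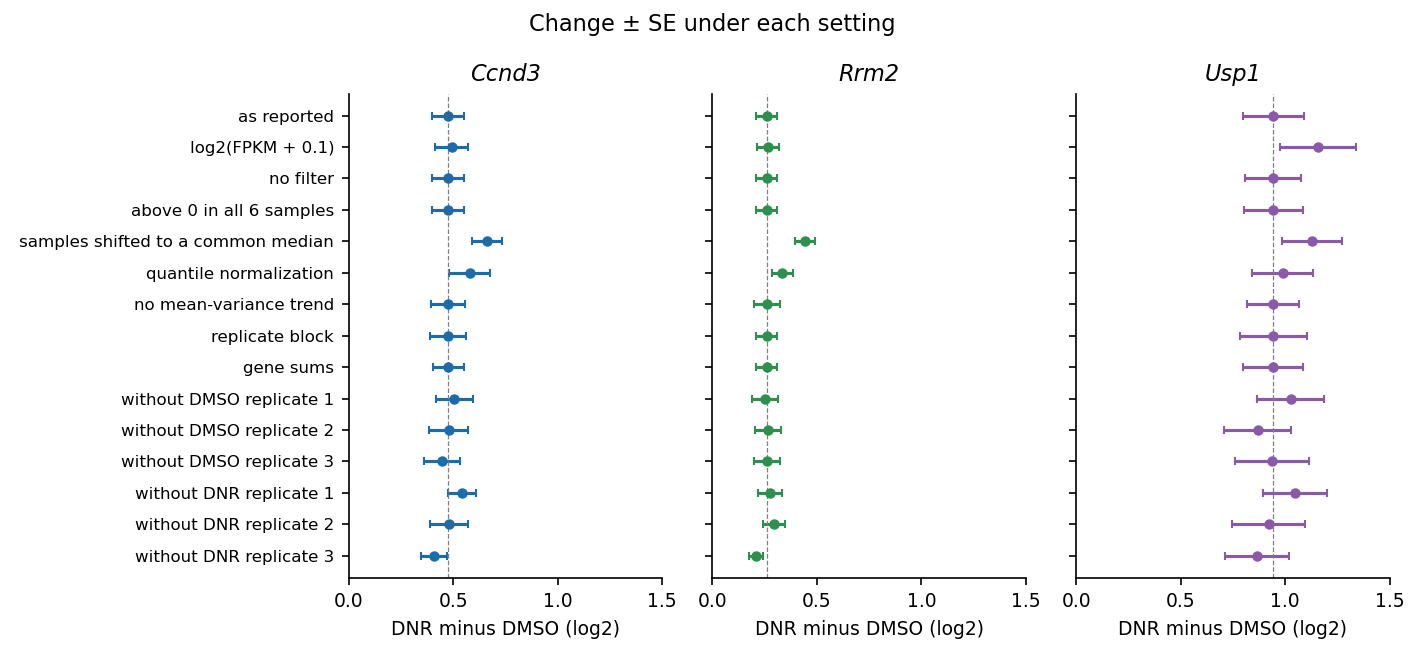
Change of Ccnd3, Rrm2 and Usp1 (DNR minus DMSO, log2 units) with its SE as bars, as reported and under 14 other settings. The dashed line marks the value as reported. Each value lies above 0, and the highest for Ccnd3 and Rrm2 are those with samples shifted to a common median. Ccne2 is left out because its size depends on the pseudocount.

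Direction in this table moved with gene span. Of genes under 10 kb with calls in 1 direction, 43 were higher and 4 lower. Between 10 and 50 kb, 66 were higher and 61 lower, and over 50 kb, 29 were higher and 114 lower. Rrm2, at 5.89 kb, belongs to the first class, and Usp1 at 11.7 kb and Ccne2 at 14.3 kb to the second. Ccnd3, at 94.6 kb, is in the third by its gene, which is the measure the classes use. Its listed transcript spans 6.22 kb, but no other gene was placed by its transcript, so that span is not comparable with the classes. The part of span in these results was not tested.

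**Figure D5:**
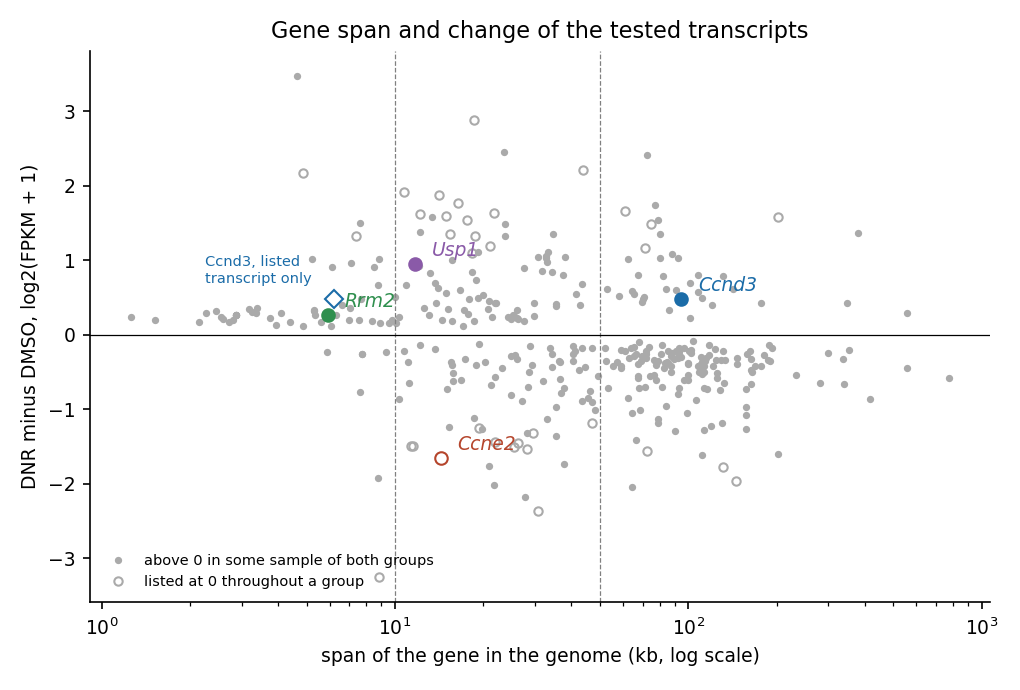
Change (DNR minus DMSO, log2(FPKM + 1)) against the span of the gene in kb, log scale, for tested transcripts with a gene; open circles are listed at 0 throughout a group. Dashed lines mark 10 and 50 kb. The open diamond places Ccnd3 at the span of its listed transcript, a measure used for no other gene. Rrm2 lies where rises prevail, Usp1 and Ccne2 where both directions occur.

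The other genes of cell cycle entry and DNA synthesis were mostly not among the rows used here. Across 7 lists of 193 genes, 11 genes had 15 rows, of which 4 rows, from 2 genes, were tested. Of these 1 was called higher and 3 lower. Of all tested transcripts 99.7% were called, 43.0% higher and 56.7% lower, so these calls are no result about the lists. The lists of G1/S regulators (31 genes), nucleotide supply (27), DNA replication (40) and checkpoint and damage kinases (18) had 2 genes each with rows, and none was tested. The lists of Usp1 partners and crosslink repair (25) and of G2 and mitosis (28) had none. Cyclin E1, the CDKs of G1, Rrm1, Wdr48, Fancd2 and Mki67 are thus not analysed here, and a change of the pathway cannot be read from these data.

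The 4 tested rows were 3 of Cdk12 and 1 of Cdk17, from the list of other cyclins and kinases. Cdk12 encodes a kinase of RNA polymerase II, which acts in transcription. Its transcript NM_001109628 rose from 2.33 ± 1.32 to 8.43 ± 2.33 FPKM, while NM_001109626 fell from 10.7 ± 1.54 to 4.57 ± 2.04 and NM_026952 from 7.35 ± 0.19 to 5.54 ± 0.41 FPKM (SD, n = 3; limma, adjusted p = 0.00385, 0.00568 and 0.00904). The Cdk17 transcript XM_030245085 fell from 5.86 ± 0.99 to 1.91 ± 1.10 FPKM (limma, adjusted p = 0.00469). Rows of 1 gene could thus move in opposite directions, and for Ccnd3, Ccne2 and Usp1 only 1 form of several has a row.

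The tested transcripts most like each of the 4 in profile were found by distance. Likeness was the root mean square difference over 6 samples of log2(FPKM + 1), after each transcript's DMSO mean was subtracted, and it mostly measures the size of the group difference. Nearest to Rrm2 were Rnf149 (0.029), Tgfbi (0.029) and Gpx1 (0.037). Rnf149 went from 33.6 ± 0.41 to 39.5 ± 1.96 FPKM (SD, n = 3), with DNR replicate 3 highest, as for Rrm2. Nearest to Ccnd3 were Crim1 (0.067), Ap2a2 (0.073) and Hvcn1 (0.074), and nearest to Usp1 were Abcf2 (0.13), Lrrfip2 (0.14) and Tmem106c (0.15). Nearest to Ccne2 was a transcript of Ptcd3 (0.12), with 2.15, 2.18 and 1.42 FPKM in the DMSO samples and zeros in all DNR samples. The next were transcripts of St3gal3 (0.15) and Cacna1i (0.20).

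The rows could not check the label of CD8 T cells, and 1 marker of other cells was abundant. Of 13 CD8 T cell markers none had a row, nor did markers of CD4 T cells, natural killer cells, or erythroid cells and platelets. Of 9 monocyte and macrophage markers, Csf1r had 1 row and the other 8 none, and its level was 58.5 to 63.2 FPKM in DMSO and 69.6 to 79.1 FPKM in DNR. Csf1r was thus more abundant than the listed transcripts of all 4 genes in every sample. It rose by 0.25 (limma, adjusted p = 0.00574), which is within the interval of Rrm2. With a monocyte and macrophage marker at this level, the values cannot be taken as those of CD8 T cells alone. Summed over 8 B cell markers, of which 2 had rows, levels were 0 to 2.27 FPKM in DMSO and 1.88 to 5.97 in DNR. These sums come from different rows, none of them tested. In DMSO only 1 Spib row was above 0, at 2.27, 1.90 and 0 FPKM in replicates 1 to 3. In DNR it was at 0, and another Spib row was at 3.26, 4.25 and 0.57 FPKM and an Ebf1 row at 0, 1.72 and 1.31. Over 6 dendritic cell markers, of which only Itgax had rows, sums were 0.96 to 1.23 FPKM in DMSO and 1.14 to 1.51 FPKM in DNR. The Itgax sums come from different rows: NM_001363984 was above 0 only in DMSO, at 1.23, 0.96 and 1.19 FPKM in replicates 1 to 3, and NM_001363985 only in DNR, at 1.51, 1.20 and 1.14 FPKM. Of 5 neutrophil markers, Csf3r was at 1.43 FPKM in 1 DMSO sample and listed at 0 elsewhere. The part of other cells in the changes of the 4 genes was not tested, and in bulk RNA more expressing cells and more RNA per cell cannot be told apart.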

How the data were processed

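RNA from 6 samples, 3 treated with DMSO and 3 with DNR for 2 h, was sequenced from libraries made with a SMARTER mRNA kit, per the labels' protocols. The authors deposited log2(FPKM + 1) values for 1037 transcripts. The scale was read from the values, since reversing it gave numbers of 2 decimals in 100% of cells, within 1e-06 FPKM. Genome builds were GRCm38 and mm10, per the submitters' processing notes. How reads were aligned and quantified, against which annotation, and how rows were picked for the table is, in the sources used here, not given. Columns coded O and a number match the DMSO descriptions, and the remaining columns, coded D, were taken as DNR. All 6 columns were mapped.

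Accessions were looked up, without version, among the RefSeq genes of GRCm38.p6, and 1013 rows matched 847 genes. Promoter windows are from RefSeq, GRCm38.p6, and were found for 2 of the 4 genes, Rrm2 and Ccnd3; exons are from GENCODE M21 (GRCm38). Rows with at least 1 FPKM in at least 3 samples, 388 in all, were compared with limma 3.58.1 in R 4.3.3 in a two-sided test (eBayes with trend) with treatment as the only term and Benjamini-Hochberg adjustment over all of them at 0.05. The test was tested on simulated data, where many transcripts had no difference and rows were not chosen for one. The table is unlike that, so the simulation does not show how the test behaves on it. Changes are DNR minus DMSO. Read counts were not used here, so depth is unknown and counting error could not be computed. Between 583 and 594 rows were above 0 in each sample, and summed FPKM were 13501 to 13669 in DMSO and 14023 to 14395 in DNR. The alternatives were another pseudocount, no filter or a stricter one, 2 scalings, no trend, a replicate block, gene sums and leaving out each sample. The 4 genes and the lists were chosen with earlier results of these data known. Named genes are the 4, tested rows of the lists, and the 3 tested transcripts nearest to each of the 4 in profile; the other list and marker genes with values were named after these were seen. No protein sequence was used here.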

Additional observations from a re-analysis of the deposited data

How the results depend on the processing

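Ccnd3, Rrm2 and Usp1 stayed higher and past the threshold under all 14 alternatives (limma). Ccne2 was called lower in the 13 that could be computed, which says nothing about stability, since its row is at 0 in DNR and entered the fit through the DMSO group alone; it has no value when a transcript must be above 0 in all 6 samples. The change on the log2 scale ran from 0.41 to 0.66 for Ccnd3 (adjusted p 0.000137 to 0.00967), from 0.21 to 0.44 for Rrm2 (0.000143 to 0.0142) and from 0.86 to 1.16 for Usp1 (0.00025 to 0.00855), and adjusted p for Ccne2 ran from 1.14e-05 to 0.00604. Leaving out 1 sample gave 0.41 to 0.54 for Ccnd3, 0.21 to 0.30 for Rrm2 and 0.86 to 1.05 for Usp1. With samples shifted to a common median, 106 transcripts were lower in place of 220, and 167 were higher as before. That shift adds 0.18 to every change by construction. Samples that shared a replicate number did not deviate together (correlations across transcripts of -0.055, 0.046 and 0.043), so the numbers were not taken as pairs. With the replicate block, 167 transcripts were higher and 218 lower, and adjusted p was 0.00699 for Ccnd3, 0.00243 for Ccne2, 0.0084 for Rrm2 and 0.00607 for Usp1. Each of the 4 genes has 1 row, so gene sums change only the other genes of the fit. These ranges describe rows of a table probably chosen on the same samples. Depth is unknown, and it limits the low rows of Ccne2 and Usp1 most.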

Other observations

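The lists of cell cycle and DNA synthesis genes had 11 rows below the filter, without 1 FPKM in at least 3 samples. Some of these were above 1 FPKM in single samples. Of the 11, 4 had groups that did not overlap, as did 40.4% of all 649 rows below the filter, so the count is near the background. All rows described here were named after their values were seen. A predicted transcript of Atr, the kinase that responds to stalled replication, was at 0.87, 1.06 and 0.68 FPKM in DMSO replicates 1 to 3 and listed at 0 in every DNR sample. A predicted transcript of Tfdp2, a partner of E2F factors, went the same way at a lower level, with 0.26, 0.25 and 0.10 FPKM under DMSO against 0, 0 and 0.01 under DNR. A predicted transcript of Tk2, the mitochondrial thymidine kinase, had 0, 0 and 0.14 FPKM under DMSO against 1.74, 2.85 and 0.76 under DNR. A predicted transcript of Cad, which starts pyrimidine synthesis, had 0.46, 0.50 and 0.46 FPKM under DNR against zeros under DMSO. A curated Cad transcript was above 0 only in DMSO replicate 1, at 3.39 FPKM. Tfdp1 and Clspn had a row above 0 in DNR replicate 1 alone, at 2.14 and 2.22 FPKM. Rows of Cdk11b, Timeless and Cdk17 were above 0 only in DMSO. Cdk11b was at 5.22, 1.51 and 0 FPKM in DMSO replicates 1 to 3, Timeless at 0.01, 1.20 and 0, and this Cdk17 row at 0, 0 and 2.12. A Trp53bp1 row was above 0 only in DNR replicate 3, at 0.99 FPKM. These rows carry no test.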
